A study of Mus musculus with 30 samples.

Results

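Frontal cortex of mice taken 24 h after lipopolysaccharide (LPS), in 4 libraries, was compared with frontal cortex of mice taken 6 h after saline, in 3 libraries, over all genes of the deposited table. These 7 libraries were picked by their labels alone from 30 in the series, and each came from a different mouse. All were adult male wild-type C57BL/6J mice, an inbred laboratory strain, 8 to 12 weeks old and about 30 g. Their drinking water had carried corticosterone (CORT), the main glucocorticoid of rodents, at 200 mg/L for 7 days, dissolved in 0.6% ethanol. Day 8 brought an injection of diisopropyl fluorophosphate (DFP), an organophosphate that blocks acetylcholinesterase, at 4 mg/kg into the peritoneum, and 7-day CORT courses then came every other week to 5 weeks in total. The LPS mice then received 0.5 mg/kg under the skin and the saline mice received saline. LPS at 24 h was also set against LPS at 6 h and at 12 h (4 cortical libraries each), and against the same contrast in hippocampus (4 and 3 libraries). Since saline cortex was collected at 6 h, the LPS challenge and the time since injection cannot be told apart, and without mice free of CORT and DFP every comparison is among mice with that history.

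LPS is a cell wall component of Gram-negative bacteria. Given outside the brain, it is sensed by Toll-like receptor 4 on immune and vascular cells, and the cytokines and interferons that follow reach the brain across its vessels and linings. Microglia, the resident phagocytes, and astrocytes, which support neurons and vessels, then change their gene expression, while glucocorticoids act through a nuclear receptor that switches on its own set of genes and restrains inflammation. The mice model the stress and toxicant exposures associated with Gulf War Illness. The 24 h point shows how cortex a day after the challenge differed from saline cortex taken at 6 h.

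Libraries held 19481365 to 21892334 counts after LPS and 16826882 to 33034295 after saline, and mitochondrial genes took 6.62 to 7.87% against 8.33 to 9.64% of them. Levels are read counts scaled to library size with TMM normalisation (CPM), listed for mice A274, A275, A276 and A278 after LPS and A223, A224 and A226 after saline. CPM are not divided by gene length, so they compare a gene between mice and not one gene with another. Summed over 12 cortical projection neuron markers, levels were 2368 to 2868 CPM after LPS and 2379 to 2931 CPM after saline. Slc17a7, a vesicular glutamate transporter, was at 1279 to 1433 CPM after LPS and 1258 to 1509 CPM after saline. In hippocampus of the LPS 24 h and saline mice Slc17a7 was at 1498 to 1658 CPM, so this gene does not tell the tissues apart. Levels of striatal and choroid plexus markers varied between libraries, and whether dissections differed was not tested. The summed level of 9 striatal neuron markers was 193 to 521 CPM after LPS and 189 to 882 CPM after saline, and that of 6 choroid plexus markers was 13.2 to 482 CPM and 44.4 to 1066 CPM. Saline mouse A224 had the highest values of both, with the striatal marker Ppp1r1b at 331 CPM and the choroid plexus marker Kl at 35.9 CPM. No member of either list was called (0 of 9 and 0 of 6), with median log2 fold changes of -0.28 and -1.23, or 0.81 and 0.56 without A224; the part these tissues had in any result was not tested, and results that move without A224 are given without it.

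Of 17111 genes tested with edgeR's quasi-likelihood test at an adjusted p of 0.05, 638 (3.73%) were higher and 407 (2.38%) lower at 24 h after LPS. At least a 2-fold difference was seen for 288 of the higher genes and 66 of the lower ones, so that large differences were mostly rises. The median log2 fold change of all tested genes was -0.000723. In 1030 of the 1045 called genes the 4 LPS libraries lay wholly above or wholly below the 3 saline libraries, which was the case for 9.64% of all tested genes upward and 8.16% downward. Without saline mouse A224 the counts were 446 higher and 281 lower, and without saline mouse A223 they were 427 and 237. Scaled to library totals alone, 976 genes were higher and 267 lower, 78.5% higher against 61.1% in the main analysis. In bulk tissue, more cells of a type and more RNA per cell cannot be told apart.

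**Figure D1:**
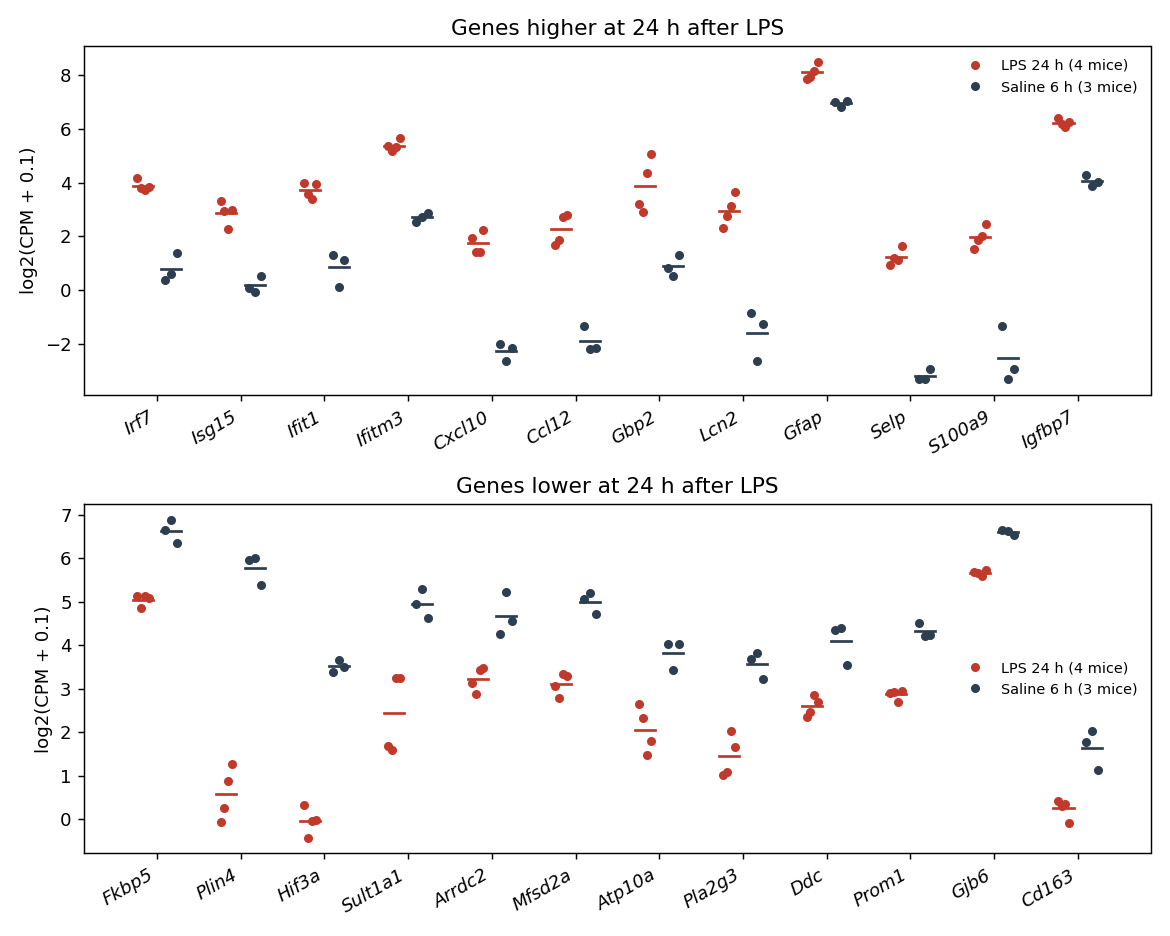
Levels of 12 genes higher and 12 genes lower at 24 h after LPS, on the log2(CPM + 0.1) scale; each point is a mouse and each line a group mean, with LPS 24 h (4 mice) left of saline 6 h (3 mice). In each gene shown the points of one group lie clear of those of the other.

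Interferon-stimulated antiviral genes rose. Of 28 tested members 24 were higher and 0 lower, with a median log2 fold change of 1.94. Irf7, the transcription factor that amplifies type I interferon production, stood at 18, 13.9, 13.2 and 14.1 CPM after LPS and at 1.21, 1.4 and 2.51 CPM after saline. The lowest LPS mouse was far above the highest saline mouse, and the log2 fold change was 3.03 ± 0.39 (SE; adjusted p = 0.000298). Isg15, a ubiquitin-like protein attached to target proteins during the antiviral response, had 9.94, 7.57, 4.77 and 7.89 CPM after LPS against 0.955, 0.85 and 1.35 CPM after saline (a log2 difference of 2.78 ± 0.36 SE, adjusted p = 0.000136). Ifit1, which binds foreign RNA caps, had 15.6, 11.9, 10.3 and 15.3 CPM against 2.36, 0.971 and 2.1 CPM (2.82 ± 0.31 SE, adjusted p = 3.72e-05). Ifitm3, which blocks viral entry at membranes, was tightest within groups, at 40.9, 35.7, 39.5 and 49.9 CPM against 5.73, 6.56 and 7.21 CPM (2.66 ± 0.18 SE, adjusted p = 1.48e-07). Zbp1, a sensor of unusual nucleic acid structures, was at 1.83 to 3.5 CPM after LPS and had no reads in 1 saline mouse. Rsad2, Usp18, Oasl2, Rtp4 and Bst2 were called with log2 fold changes of 1.83 to 2.46, while Stat2, Ifi27, Ifih1 and Cmpk2 did not pass the test. Without A224, 22 members were called.

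The interferon-inducible GTPases, large proteins that attack the vacuoles of intracellular microbes, rose in all 13 tested members (median log2 fold change 2.62), but unequally between mice. Gbp2 was at 9.18, 7.33, 20.2 and 33.2 CPM after LPS and at 1.66, 1.34 and 2.38 CPM after saline (3.22 ± 0.65 SE, adjusted p = 0.0112). Gbp4 was at 3.68, 2.92, 17 and 21 CPM against 0.352, 0.546 and 0.533 CPM (4.52 ± 1.10 SE, adjusted p = 0.0325). Mice A276 and A278 carried several times the level of A274 and A275, and the same mice were highest for Iigp1, Tgtp1, Tgtp2 and Gbp5. In hippocampus of these 4 mice Gbp4 was more even, at 2.22, 1.8, 2.45 and 3.18 CPM. The number of members called was 8 without A223, 7 without A224 and 6 when the 2 groups were fitted alone, and Gbp4, Iigp1, Tgtp1 and Tgtp2 lost their calls with limma-voom (log2 fold changes 4.08, 3.34, 2.96 and 2.84). Irgm1, a regulatory GTPase of the same system, was even between mice at 17.9, 16.1, 19 and 22.9 CPM after LPS and 8.14, 8.07 and 10.6 CPM after saline (1.07 ± 0.15 SE, adjusted p = 0.000112). Tgtp1 and Tgtp2, and the guanylate-binding protein genes among themselves, are close copies whose reads the counting may have divided.

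Promoter windows of these genes were read from RefSeq (GRCm38.p6, 250 bases before to 50 after the annotated start) to see what they share in sequence. The interferon-stimulated response element was searched on both strands as GAAANNGAAA, with overlapping matches allowed. It occurs in 3.44% of all 32851 windows and in 3.99% of 27025 genes. A window was found for 9 of the 13 GTPase genes and all 9 held a match. Among antiviral genes 11 of 19 (57.9%) held one, and among MHC class I genes 3 of 13. The windows of Isg15, Ifit1 and Gbp2 are shown as examples of called genes of the antiviral and GTPase lists, and that of Gbp3 because its matches overlap; all are given 5′ to 3′ on the gene's strand with the matches in capitals.
Isg15, chr4:156200769-156201068, minus strand: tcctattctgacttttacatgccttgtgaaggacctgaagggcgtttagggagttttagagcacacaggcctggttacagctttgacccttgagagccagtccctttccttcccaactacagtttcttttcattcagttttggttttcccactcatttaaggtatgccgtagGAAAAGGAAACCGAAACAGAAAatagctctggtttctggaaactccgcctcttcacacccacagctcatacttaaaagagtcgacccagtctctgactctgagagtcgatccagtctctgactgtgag
Ifit1, chr19:34640639-34640938, plus strand: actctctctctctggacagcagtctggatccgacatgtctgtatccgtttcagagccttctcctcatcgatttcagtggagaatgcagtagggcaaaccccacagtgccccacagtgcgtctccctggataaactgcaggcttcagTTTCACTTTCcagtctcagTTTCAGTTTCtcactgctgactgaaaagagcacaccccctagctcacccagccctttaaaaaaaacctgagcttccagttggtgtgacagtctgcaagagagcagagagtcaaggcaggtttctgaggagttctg
Gbp2, chr3:142620413-142620712, plus strand: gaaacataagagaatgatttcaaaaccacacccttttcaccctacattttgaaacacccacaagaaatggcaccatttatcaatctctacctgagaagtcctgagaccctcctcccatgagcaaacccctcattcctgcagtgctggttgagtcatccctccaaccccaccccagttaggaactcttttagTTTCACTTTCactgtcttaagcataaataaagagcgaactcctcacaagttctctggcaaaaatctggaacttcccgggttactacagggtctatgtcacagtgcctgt
Gbp3, chr3:142559794-142560093, plus strand: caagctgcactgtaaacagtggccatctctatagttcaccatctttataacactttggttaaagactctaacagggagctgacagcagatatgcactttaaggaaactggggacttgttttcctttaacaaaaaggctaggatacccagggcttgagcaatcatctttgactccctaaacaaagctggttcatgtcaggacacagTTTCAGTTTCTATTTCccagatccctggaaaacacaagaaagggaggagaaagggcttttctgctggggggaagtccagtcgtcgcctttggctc
Isg15 holds 3 overlapping matches between 78 and 57 bases before the start, Ifit1 holds 2 between 104 and 76 bases before it, Gbp2 holds 1 at 59 to 50 bases, and Gbp3 holds 2 at 45 to 30 bases. A match describes letters and not binding.

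Genes of antigen presentation by MHC class I also rose. Of 15 tested members of the class I and immunoproteasome list, 13 were higher and 0 lower (median 0.68). Tap1, which carries peptides into the endoplasmic reticulum for loading, stood at 6.74, 5.2, 9 and 9.57 CPM after LPS against 2.41, 1.46 and 1.88 CPM after saline (1.98 ± 0.20 SE, adjusted p = 4.27e-06). Nlrc5, the activator of class I transcription, had 1.91, 1.44, 2.64 and 3.08 CPM against 0.201, 0.304 and 0.282 CPM (3.08 ± 0.35 SE, adjusted p = 1.86e-05). Neither gene overlapped between groups. The abundant heavy chain H2-K1 was at 39 to 47.9 CPM after LPS and 22.6 to 24.1 CPM after saline (0.89 ± 0.12 SE, adjusted p = 6.43e-05). H2-T23 was not called in cortex, at 31.2, 25.5, 27.1 and 35.4 CPM against 30.4, 33.9 and 33.1 CPM (-0.12 ± 0.14 SE, adjusted p = 0.755). Class I genes are close relatives, and reads could be shared among H2-K1, H2-D1, H2-Q4, H2-Q7 and H2-T23.

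Most cytokine genes called at 24 h were chemokines. Of 16 listed cytokines and chemokines 12 were tested, and 6 were higher with 0 lower (median log2 fold change 2.44, or 2.19 with Cxcl1 at its lower bound). With DESeq2 8 were higher, without A224 5 and without A226 4. Cxcl10, an interferon-induced attractant of T cells, was at 3.78, 2.57, 2.55 and 4.62 CPM after LPS and 0.151, 0.0607 and 0.125 CPM after saline (4.79 ± 0.49 SE, adjusted p = 6.32e-06). Ccl12, a monocyte attractant, was at 3.11, 3.51, 6.54 and 6.77 CPM against 0.302, 0.121 and 0.125 CPM (4.78 ± 0.45 SE, adjusted p = 3.22e-06). Both were called under every alternative. Ccl2, the related attractant, had 0.621, 0.545, 1.14 and 2.85 CPM after LPS and 0.101, 0 and 0.0313 CPM after saline, a ratio of pooled counts of 31.2 (95% interval 10.4 to 153, counting error only), and its adjusted p of 0.00705 did not hold without A226. Cxcl1 had no reads in saline cortex and was at least 3.68-fold higher against a floor of 3 counts over the group, with calls lost without any of 6 libraries. The classical first-wave cytokines Il1b and Tnf were not called, and Il6 did not pass the filter on low counts. Il1b had 0.669, 1.49, 1.95 and 2.47 CPM after LPS against 0.603, 0.304 and 0.345 CPM after saline (1.99 ± 0.67 SE, adjusted p = 0.116). Tnf had 0.0956, 0.099, 0.455 and 0.84 CPM against 0.0503, 0 and 0.0313 CPM. Its ratio of pooled counts was 13.6 (95% interval 3.47 to 117), and its adjusted p of 0.0516 lay just above the threshold. Every LPS mouse was above every saline mouse for both, and A274 was the lowest of the LPS mice.

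**Figure D2:**
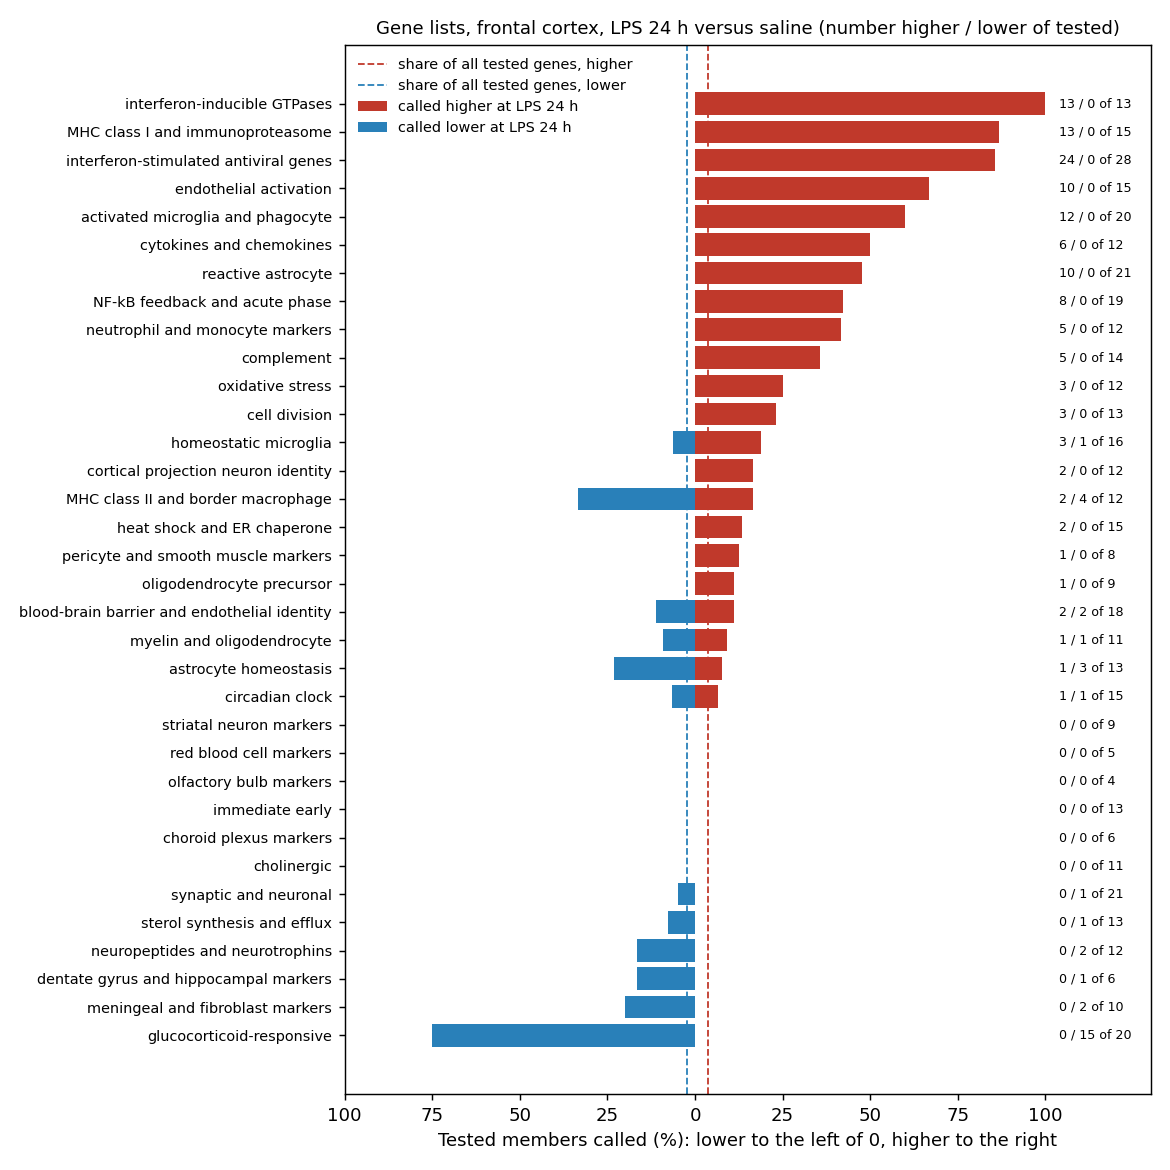
Percentage of tested members of each gene list called higher (right of 0) or lower (left of 0) at 24 h after LPS relative to saline, for lists with at least 4 tested members; dashed lines mark the 3.73% and 2.38% of all tested genes. The GTPase, MHC class I and antiviral lists stand at the top with 13 of 13, 13 of 15 and 24 of 28 members higher, and the glucocorticoid list at the bottom with 15 of 20 lower.

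Glucocorticoid-responsive genes moved the other way. Of 20 tested members 0 were higher and 15 lower (median log2 fold change -0.77), and 13 were lower without A224. Plin4, a lipid droplet coat protein, was at 0.86, 1.09, 1.73 and 2.29 CPM after LPS and at 61.9, 63.9 and 41.7 CPM after saline. It nearly vanished in every LPS mouse, with a log2 fold change of -5.21 ± 0.30 (SE; adjusted p = 1.02e-07). Fkbp5, the chaperone that lowers the hormone affinity of the glucocorticoid receptor, stood at 34.9, 28.8, 34.8 and 33.7 CPM against 100, 118 and 81.7 CPM (-1.59 ± 0.14 SE, adjusted p = 1.80e-06). Hif3a, a member of the hypoxia factor family, was at 1.15, 0.644, 0.864 and 0.887 CPM against 10.3, 12.6 and 11.2 CPM (-3.67 ± 0.24 SE, adjusted p = 2.55e-08). Sgk1, a kinase that controls ion transport, had 60.2, 48.6, 46.8 and 46.3 CPM after LPS and 85.3, 200 and 125 CPM after saline (-1.44 ± 0.22 SE, adjusted p = 0.00123), with A224 the highest. Sult1a1, a sulfotransferase, was at 3.11, 2.92, 9.41 and 9.33 CPM against 31, 39.2 and 24.6 CPM (-2.33 ± 0.46 SE, adjusted p = 0.00911), a call that it and Sgk1 lost when the 2 groups were fitted alone. Tsc22d3, Zbtb16, Klf9, Mt1, Arrdc2 and Gpd1 were lower by 0.59 to 1.49 on the log2 scale. Per1, a clock gene also induced by glucocorticoids, was at 114, 116, 75.7 and 70.9 CPM against 87, 101 and 97.8 CPM and was not called (adjusted p = 0.982).

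The glucocorticoid response element, searched as GNACANNNTGTNC, which reads the same on both strands, occurs in 0.475% of windows and 0.537% of genes. It was found in 3 of the 17 list members with a window, namely Sgk1, Mt1 and Map3k6. The window of an annotated start of Sgk1 is shown because that gene was lower in every LPS mouse and the match, in capitals, is 188 to 176 bases before the start.
Sgk1, chr10:21993640-21993939, plus strand: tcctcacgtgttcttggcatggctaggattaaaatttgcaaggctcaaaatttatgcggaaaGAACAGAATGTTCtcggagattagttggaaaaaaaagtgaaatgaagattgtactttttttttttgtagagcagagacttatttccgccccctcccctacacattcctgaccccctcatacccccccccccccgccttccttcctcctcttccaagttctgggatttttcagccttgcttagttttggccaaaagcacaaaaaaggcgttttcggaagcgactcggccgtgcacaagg
No match in the other windows says only that these letters are not within them.

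Because the groups differ in hours since injection, clock genes were read beside these values. Of 15 tested clock genes 1 was higher and 1 lower, beside 3.73% higher and 2.38% lower of all tested genes. Counts this small do not set the list apart from all genes. Dbp, an output gene of the clock, was at 62.4, 63.3, 66.8 and 69.4 CPM after LPS and 44.2, 50 and 46.3 CPM after saline (0.48 ± 0.07 SE, adjusted p = 0.000389). Arntl, the core activator, was at 20.3 to 21.2 CPM against 24.9 to 27.1 CPM (-0.33 ± 0.08 SE, adjusted p = 0.014), and lost its call without A223, without A226 and with library totals. Nr1d1, which represses Arntl, was at 84.3 to 102 CPM against 92.3 to 115 CPM and was not called (adjusted p = 0.833).

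Endothelial activation genes, which let blood leukocytes stick to and cross vessel walls, rose in 10 of 15 tested members with 0 lower (median 1.42). Selp, the adhesion molecule P-selectin, was at 1.82, 2.18, 2.05 and 3.03 CPM after LPS and was read in saline mouse A226 alone, at 0.0313 CPM, a ratio of pooled counts of 163 (95% interval 28.9 to 6477; adjusted p = 2.34e-05). Sele, or E-selectin, was at 1.29, 3.22, 3.27 and 3.64 CPM against 0.0503, 0.0607 and 0 CPM, a ratio of 103 (28.2 to 854; adjusted p = 0.000108). Both selectins were thus close to absent in saline cortex. Adamts9, a secreted matrix protease, was at 8.55, 10.2, 16.2 and 15.6 CPM against 1.26, 1.52 and 1.13 CPM (3.31 ± 0.31 SE, adjusted p = 4.27e-06). Angpt2, which loosens vessel walls, was at 3.54, 4.16, 9.64 and 8.03 CPM against 1.16, 1.52 and 1.29 CPM (2.28 ± 0.44 SE, adjusted p = 0.00531). Icam1, Vcam1, Ackr1 and Ch25h were called as well, with log2 fold changes of 0.49 to 3.67.

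Of 18 tested blood-brain barrier and endothelial identity genes 2 were higher, 2 lower and 14 not called (median -0.10). Counts in this paragraph stand beside 3.73% of all tested genes called higher and 2.38% called lower. Mfsd2a, the transporter of omega-3 lipids that restrains transcytosis at the barrier, fell to 8.27, 6.83, 9.95 and 9.66 CPM after LPS, against 33.2, 36.7 and 26.2 CPM after saline (-1.87 ± 0.13 SE, adjusted p = 6.15e-08). Atp10a, a phospholipid flippase of brain endothelium, was at 6.17, 4.9, 2.68 and 3.36 CPM against 16.1, 10.7 and 16.1 CPM (-1.75 ± 0.23 SE, adjusted p = 8.96e-05). The junction gene Esam was at 22.4 to 27.1 CPM against 13.1 to 13.9 CPM (0.85 ± 0.12 SE, adjusted p = 0.000173) and Pecam1 rose by 0.53 ± 0.11 (SE, adjusted p = 0.0047). The tight junction gene Cldn5 was at 37 to 56.1 CPM against 39.4 to 49.7 CPM and was not called (adjusted p = 0.968). Pericyte and smooth muscle markers gave 1 higher of 8, Rgs5, a call lost without A224. Without LPS mouse A274 the number of barrier genes called lower was 5.

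Most microglial genes had a positive log2 fold change, 18 of 20 tested in the activated list and 14 of 16 in the homeostatic list, but not all were called. Of 20 tested members of the activated microglia and phagocyte list, 12 were higher and 0 lower (median 0.81). Without A224 8 were higher, and without A226 6. Fcgr1, the high-affinity receptor for antibody tails, was at 9.18, 8.96, 6.73 and 7.98 CPM after LPS and 1.86, 1.64 and 1.97 CPM after saline (2.15 ± 0.19 SE, adjusted p = 8.03e-07). Cd14, the co-receptor that hands LPS to Toll-like receptor 4, was at 4.78, 5.45, 4.64 and 7.19 CPM against 1.16, 2.67 and 1.97 CPM (1.52 ± 0.24 SE, adjusted p = 0.000583), and Cd68, a lysosomal protein, was at 10.2 to 12.1 CPM against 6.37 to 6.96 CPM. These ranges were well apart.

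Of 16 homeostatic microglia genes tested, 3 were higher and 1 lower (median 0.50). Without A224, 2 were higher and 1 lower (median 0.34). Fcrls, an Fc receptor-like protein of resting microglia, was at 35.7, 31.8, 21.6 and 21.6 CPM after LPS and 5.83, 2.67 and 7.08 CPM after saline (2.36 ± 0.42 SE, adjusted p = 0.00514). Cx3cr1, the receptor for the neuronal chemokine fractalkine, was nearly identical in the LPS mice at 47.8, 48.9, 47.9 and 48.4 CPM, against 30.1, 17.3 and 30.9 CPM (0.87 ± 0.16 SE, adjusted p = 0.00185). Mertk, which clears dying cells, was the member called lower, at 32.1, 30, 32.2 and 32.3 CPM against 65.3, 53.1 and 56.9 CPM (-0.89 ± 0.11 SE, adjusted p = 2.81e-05). P2ry12, the purine receptor that guides microglial processes, overlapped between groups, at 30.4, 25.1, 12.6 and 9.66 CPM after LPS and 16.3, 7.89 and 15.4 CPM after saline (0.54 ± 0.55 SE, adjusted p = 0.732). Mice A274 and A275, the lower pair for Gbp4, were the higher pair for P2ry12, Fcrls and Olfml3. Tmem119 was higher by 0.88 ± 0.22 (SE, adjusted p = 0.0282), a call lost without any 1 of 5 libraries.

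**Figure D3:**
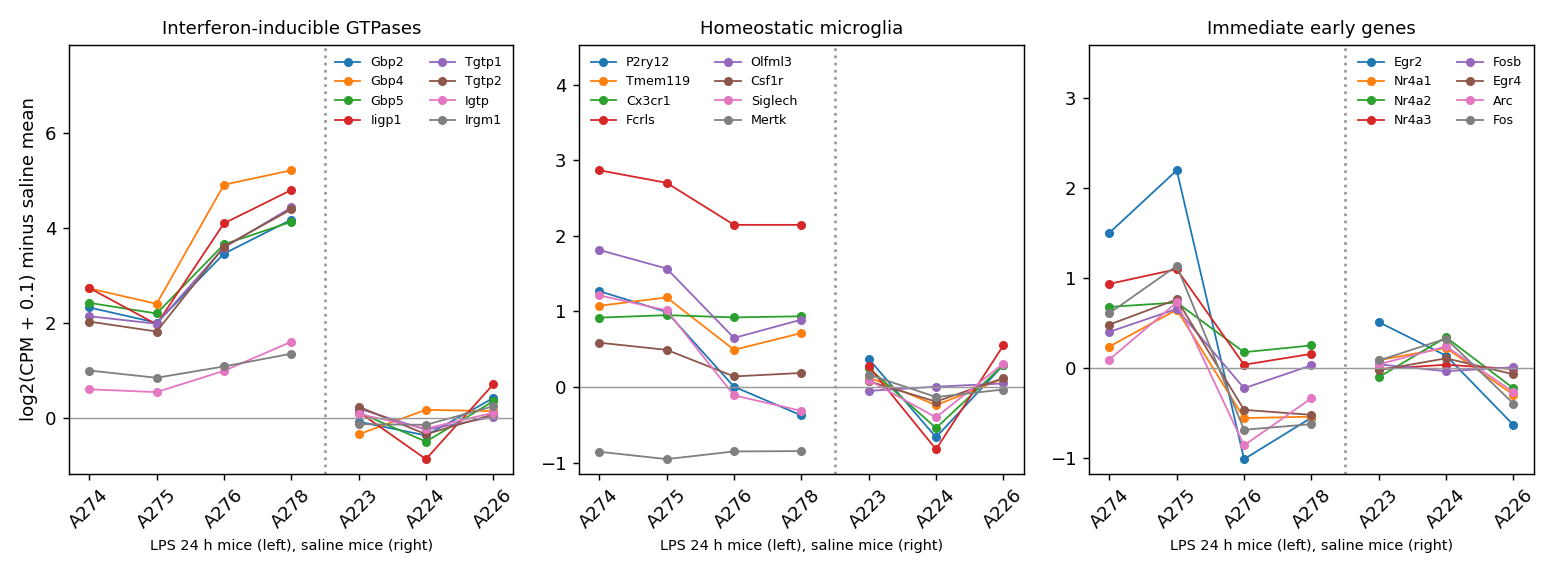
Levels of 8 interferon-inducible GTPases, 8 homeostatic microglia genes and 8 immediate early genes in each mouse, as log2(CPM + 0.1) minus the mean of the 3 saline mice, with the 4 LPS 24 h mice left of the dotted line and lines joining the values of a gene. A276 and A278 are highest for the GTPases and lowest for Olfml3, P2ry12 and the immediate early genes, while Cx3cr1 and Mertk are level across the 4 LPS mice.

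Genes of macrophages at the brain's borders gave mixed values. In a list of MHC class II and border macrophage genes 2 of 12 tested members were higher and 4 lower (median 0.08), and the members summed to 25.5 to 32.6 CPM after LPS and 35.8 to 36.1 CPM after saline. Cd163, the scavenger receptor for haemoglobin, was at 1.24, 1.14, 1.18 and 0.84 CPM against 3.32, 3.95 and 2.1 CPM (-1.47 ± 0.23 SE, adjusted p = 0.000444). F13a1, a clotting factor subunit made by these cells, was at 1.91, 1.73, 1.41 and 2.38 CPM against 5.33, 4.19 and 5.14 CPM (-1.40 ± 0.20 SE, adjusted p = 0.000171). The mannose receptor gene Mrc1 was not called (adjusted p = 0.435), at 3.64 to 6.34 CPM against 3.34 to 4.42 CPM. Cd74, the class II invariant chain, was higher, at 2.58, 3.51, 3.18 and 2.66 CPM against 1.76, 1.09 and 1.38 CPM (1.07 ± 0.23 SE, adjusted p = 0.00582). Without A226, 2 members were lower, and without A223, A224, A226, A274 or A278, 1 was higher. The median was -0.02 without A224 and -0.10 with the 2 groups fitted alone.

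Of 14 tested complement genes 5 were higher and 0 lower (median 0.66). C4b, which tags surfaces after classical activation, was at 38.6, 42.7, 39.4 and 40 CPM after LPS and 20, 21.3 and 21.3 CPM after saline (0.94 ± 0.10 SE, adjusted p = 4.27e-06), and was called under every alternative. The C1q subunit genes C1qa, C1qb and C1qc and C3 each lost their call without 4 or more of the 7 libraries; C1qa was at 53.3 to 78.6 CPM against 37.4 to 40.7 CPM (0.83 ± 0.20 SE, adjusted p = 0.0208). The list kept 1 call without A223, without A226 or without A275, 2 without A224, 3 without A274 or without A278, and 2 with no filter on low counts.

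Some genes of the reactive astrocyte list rose, and some of the homeostatic astrocyte list fell. Which cells carried these differences in bulk tissue was not tested. Of 21 tested reactive astrocyte genes 10 were higher and 0 lower (median 0.55), and 5 or 6 without A223, A226 or A278. Gfap, the astrocyte filament protein, was at 230, 245, 285 and 360 CPM after LPS and 128, 112 and 132 CPM after saline (1.18 ± 0.15 SE, adjusted p = 0.000138). Lcn2, a secreted iron-binding protein of acute inflammation, was at 4.87, 6.68, 8.73 and 12.3 CPM against 0.452, 0.0607 and 0.313 CPM (4.78 ± 0.58 SE, adjusted p = 0.000202), and Osmr, a receptor of the interleukin-6 family, at 6.31, 8.02, 13.5 and 13.2 CPM against 2.61, 2.55 and 2.66 CPM (1.97 ± 0.28 SE, adjusted p = 0.000375). Serpina3n, a protease inhibitor often used as a reactive marker, overlapped at 18.3 to 27.8 CPM against 18.7 to 25 CPM and was not called (adjusted p = 0.846). Among 13 homeostatic astrocyte genes 1 was higher and 3 lower. Gjb6, the gap junction protein connexin 30, was at 51.7, 50.4, 48.5 and 53 CPM after LPS and 100, 98.8 and 92.9 CPM after saline (-0.93 ± 0.06 SE, adjusted p = 1.89e-08). Glul, which turns glutamate into glutamine, was at 1407 to 1528 CPM against 1893 to 2059 CPM (-0.43 ± 0.06 SE, adjusted p = 0.000161), and Aqp4, the water channel of astrocyte endfeet, was at 77 to 85.6 CPM against 48 to 64.6 CPM (0.51 ± 0.10 SE, adjusted p = 0.00406).

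Feedback regulators of NF-kB and acute phase genes were higher in 8 of 19 tested members with 0 lower (median 0.44), and in 5 without A223, A224, A226 or A278. Bcl3, an atypical inhibitor protein that works in the nucleus, was at 1.77, 2.03, 3.27 and 4.62 CPM after LPS and 0.452, 0.243 and 0.219 CPM after saline (3.29 ± 0.42 SE, adjusted p = 6.73e-05). Socs3, which shuts off interleukin-6 signalling, was at 7.5, 9.85, 17.2 and 18.2 CPM against 3.87, 3.52 and 2.73 CPM (1.99 ± 0.32 SE, adjusted p = 0.00161). Nfkbia, the classical inhibitor, was not called, at 20.2 to 23.3 CPM against 24.1 to 42 CPM (-0.48 ± 0.17 SE, adjusted p = 0.125).

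Neutrophil and monocyte transcripts were present at low levels. Of 17 listed markers 12 passed the filter on low counts and 5 were higher with 0 lower (median 2.50), with 8 higher without A223 and 2 under a stricter filter. The list summed to 18.7 to 22.1 CPM after LPS and 8.26 to 11.1 CPM after saline. S100a9, an abundant neutrophil calcium-binding protein, was at 2.82, 3.56, 3.95 and 5.41 CPM against 0.302, 0 and 0.0313 CPM, a ratio of pooled counts of 40.5 (95% interval 19.5 to 102; adjusted p = 5.79e-06). Its partner S100a8 was at 2.68 to 3.55 CPM against 0 to 0.352 CPM (ratio 16.5, 9.5 to 31.5; adjusted p = 3.91e-06). Plac8 had no reads after saline and was at least 20.4-fold higher at 0.373 to 1.72 CPM. The more restricted markers Ly6g, Camp, Ccr2, Elane and Mpo did not pass the filter; Ly6g had 4 reads after LPS and 0 after saline. Of 12 lymphocyte markers 2 were tested and 0 called, and Ms4a1 and Gzma had no reads in any of the 7 libraries. Haemoglobin and other red cell genes, a measure of blood left in the tissue, gave 0 called of 5 and summed to 668 to 969 CPM after LPS and 744 to 1185 CPM after saline.

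Counts for neuronal genes stand beside 3.73% of all tested genes called higher and 2.38% called lower. Among the 21 synaptic genes 1 had a positive log2 fold change. For 7 of them the groups did not overlap, which held for 9.64% of all tested genes upward and 8.16% downward. Of 21 tested synaptic genes 0 were higher and 1 lower (median -0.17), the exception being the glutamate receptor gene Gria1 at 287, 288, 316 and 292 CPM after LPS and 341, 381 and 339 CPM after saline (-0.26 ± 0.07 SE, adjusted p = 0.0286), which lost its call without any 1 of 5 libraries and with library totals. No immediate early gene was called of 13 tested (median 0.13, or -0.13 without A275), but their spread was wide among LPS mice. Egr2, a transcription factor induced by neuronal activity, was at 7.5, 12.2, 1.23 and 1.73 CPM after LPS and 3.72, 2.85 and 1.63 CPM after saline, so that the LPS mice lay on both sides of the saline mice (adjusted p = 0.501). Of 12 neuropeptide and neurotrophin genes 2 were lower, Vip and Adcyap1, and 0 without A223. None of 11 cholinergic genes was called (median -0.08), including Ache, which encodes the enzyme that DFP blocks, at 41.5, 48.6, 56.6 and 51 CPM against 43.2, 55.6 and 44.4 CPM (0.05 ± 0.13 SE, adjusted p = 0.909).

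Further lists are given beside the 3.73% of all tested genes called higher and the 2.38% called lower. Of 13 tested cell division genes 3 were higher, all of the DNA replication helicase, with Mcm3 at 6.12, 5.69, 4.73 and 3.55 CPM after LPS and 2.66, 1.52 and 2.38 CPM after saline (1.17 ± 0.25 SE, adjusted p = 0.00559). The proliferation marker Mki67 was not called. Of 12 oxidative stress genes 3 were higher (1 without A223, A274 or A276), and Cyba, a subunit of the phagocyte oxidase, was at 8.54 to 10.8 CPM against 4.48 to 5.04 CPM (0.98 ± 0.14 SE, adjusted p = 0.000202). Myelin genes gave 1 higher and 1 lower of 11, heat shock and chaperone genes 2 higher of 15 and 0 without A223, A224, A226 or A278, and sterol genes 1 lower of 13, Fdft1. Of 10 meningeal markers 2 were lower and 0 higher, Igf2 at 35 to 41.7 CPM against 63.2 to 87 CPM and Slc6a13 at 5.09 to 7.7 CPM against 11.1 to 12.2 CPM; the 10 summed to 96.5 to 116 CPM and 135 to 149 CPM.

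Some large differences fell outside these groups. Pla2g3, a secreted phospholipase, was at 1.91, 2.03, 3.95 and 3.08 CPM after LPS and 12.7, 14.1 and 9.28 CPM after saline (-2.11 ± 0.28 SE, adjusted p = 0.000138). Ddc, the decarboxylase that makes dopamine and serotonin, was at 5.02, 5.4, 7.18 and 6.35 CPM against 20.4, 21.1 and 11.6 CPM (-1.55 ± 0.18 SE, adjusted p = 3.14e-05), and Prom1, a membrane protein of progenitor cells, at 6.41 to 7.56 CPM against 18.3 to 22.8 CPM (-1.47 ± 0.12 SE, adjusted p = 1.86e-07). Scgb3a1, Igfbp7, Rtp1, Wipf3 and Htra1 were chosen after their values were seen. Scgb3a1, a secreted secretoglobin, was at 3.97, 4.01, 4.73 and 3.59 CPM after LPS against 0.0503, 0.0607 and 0 CPM after saline, a ratio of pooled counts of 147 (95% interval 40.3 to 1215; adjusted p = 6.71e-09). Igfbp7, a secreted protein of vessels that binds insulin-like growth factors, was at 83.9, 71.8, 67.2 and 75.4 CPM against 19.2, 14.4 and 16.1 CPM and had the smallest adjusted p of all genes (2.17 ± 0.11 SE, adjusted p = 2.01e-09). Rtp1, a receptor transport protein of the olfactory system, was at 0.287 to 0.56 CPM against 3.57 to 6.19 CPM (-3.54 ± 0.37 SE, adjusted p = 6.90e-06). Wipf3 and Htra1 were lower by 1.27 and 1.08 on the log2 scale, each with no overlap.

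Setting 24 h against 6 h after LPS asks what had changed since the early response, without the saline mice. Of 17111 genes 135 (0.789%) were higher and 178 (1.04%) lower at 24 h. Without LPS 6 h mouse A240 the counts were 45 and 63, and without LPS 24 h mouse A275 they were 53 and 57. Il1b was at 0.669, 1.49, 1.95 and 2.47 CPM at 24 h, against a mean of 6.07 CPM at 6 h (log2 fold change -1.88, adjusted p = 0.0465). The inflammatory genes Saa3, Hp, Selp, Sele and S100a8 were also lower at 24 h than at 6 h, by 1.91, 1.69, 1.37, 1.33 and 1.19 on the log2 scale. Plin4 was lower again, with a mean of 10.8 CPM at 6 h (-2.84, adjusted p = 0.000258), as were Mfsd2a (-1.28, adjusted p = 2.50e-05) and Gjb6 (-0.63, adjusted p = 1.26e-05). Higher at 24 h were the microglial genes Fcrls (2.24, adjusted p = 0.0153), Olfml3 (adjusted p = 0.0437) and Tmem119 (1.34, adjusted p = 0.00643), complement C4b (0.78, adjusted p = 0.00011), and the chemokines Ccl12 and Cxcl10 (1.21 and 1.14). Of the 16 homeostatic microglia genes 7 were higher and 0 lower at 24 h than at 6 h, and of the 20 glucocorticoid genes 6 were lower and 0 higher. Scgb3a1 had a mean of 0.834 CPM at 6 h (2.27, adjusted p = 1.26e-05) and Rtp1 one of 3.45 CPM (-3.08, adjusted p = 0.000188). This comparison shares its 24 h libraries with the one against saline, so the pair are not independent.

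**Figure D4:**
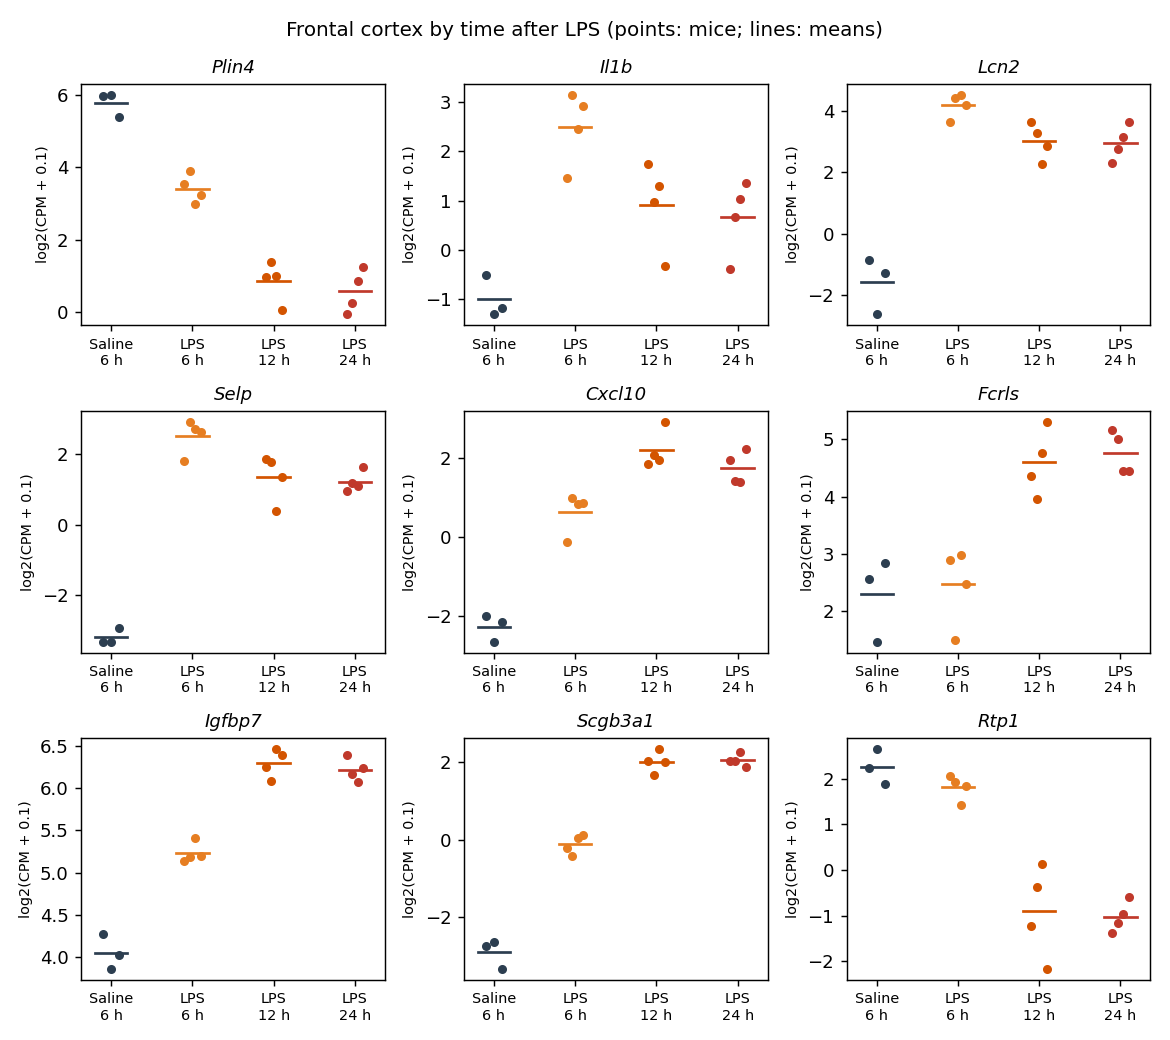
Levels of 9 genes in frontal cortex at 6 h after saline and 6, 12 and 24 h after LPS, on the log2(CPM + 0.1) scale; points are mice and lines group means. Il1b, Lcn2 and Selp have their highest mean at 6 h after LPS, Fcrls sits near saline at 6 h and above it at 12 and 24 h, and the 12 h and 24 h mice overlap in every gene shown.

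Against LPS at 12 h no gene was called (0% of 17111 in either direction) by edgeR, DESeq2 or limma-voom, with 310 genes at an unadjusted p under 0.05. Values lay close for the genes above. Plin4 averaged 1.80 CPM at 12 h, Irf7 16.7 CPM, Cxcl10 4.72 CPM, Mfsd2a 8.88 CPM and Fkbp5 35.9 CPM, each within or near the 24 h range. A p that misses the threshold does not show that the 12 h and 24 h states were alike.

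Whether the 24 h difference was the same in cortex as in hippocampus was tested as an interaction over all 30 libraries. Of 17650 genes 10 (0.0567%) had a higher and 12 (0.068%) a lower log2 fold change in cortex, with 1484 at an unadjusted p under 0.05. With mouse as a replicate block, 1 and 2 genes were called, and 16 and 19 with mouse as a random effect. The block compares tissues within a mouse, so its saline side rests on A224 and A226. Saline mouse A222 gave hippocampus alone and A223 cortex alone. H2-T23, a class I molecule that displays leader peptides, averaged 29.4 ± 4.37 CPM after LPS and 32.1 ± 1.75 CPM after saline in cortex, and 10.9 ± 1.79 CPM and 5.41 ± 0.713 CPM in hippocampus (SD, n = 4 and 3), a difference of log2 fold changes of -1.13 ± 0.21 (SE; adjusted p = 0.0132, and 0.00791 with the block). Its level after LPS was above saline in hippocampus and not in cortex. Lrg1, a secreted glycoprotein of activated vessels, averaged 11.9 ± 1.07 and 10.3 ± 1.1 CPM in cortex and 7.66 ± 1.22 and 3.29 ± 0.692 CPM in hippocampus after LPS and saline (adjusted p = 0.0271; 0.0551 with the block). Prss23, a serine protease, averaged 9.84 ± 1.1 CPM after LPS and 16.2 ± 1.53 CPM after saline in cortex, and 7.31 ± 0.924 and 6.16 ± 0.514 CPM in hippocampus (-0.96 ± 0.16 SE, adjusted p = 0.0106; 0.0574 with the block). Rprm, a cell cycle inhibitor of projection neurons, averaged 52.7 ± 4.52 and 41.1 ± 2.46 CPM in cortex, against 33.6 ± 3.53 and 49.5 ± 6.21 CPM in hippocampus (0.91 ± 0.15 SE, adjusted p = 0.0106; 0.305 with the block). No GTPase, antiviral or glucocorticoid list member was among the 22 genes. With 0.0567% and 0.068% of all genes called, that does not show that these lists changed alike in both tissues. Their median differences of log2 fold changes, cortex minus hippocampus, were 0.38, -0.18 and -0.03. In hippocampus Plin4 was at 0.888, 0.995, 1.79 and 0.783 CPM in the same 4 LPS mice, and at 64.3, 39.1 and 20.4 CPM in saline mice A222, A224 and A226, of which A224 and A226 also gave cortex.

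**Figure D5:**
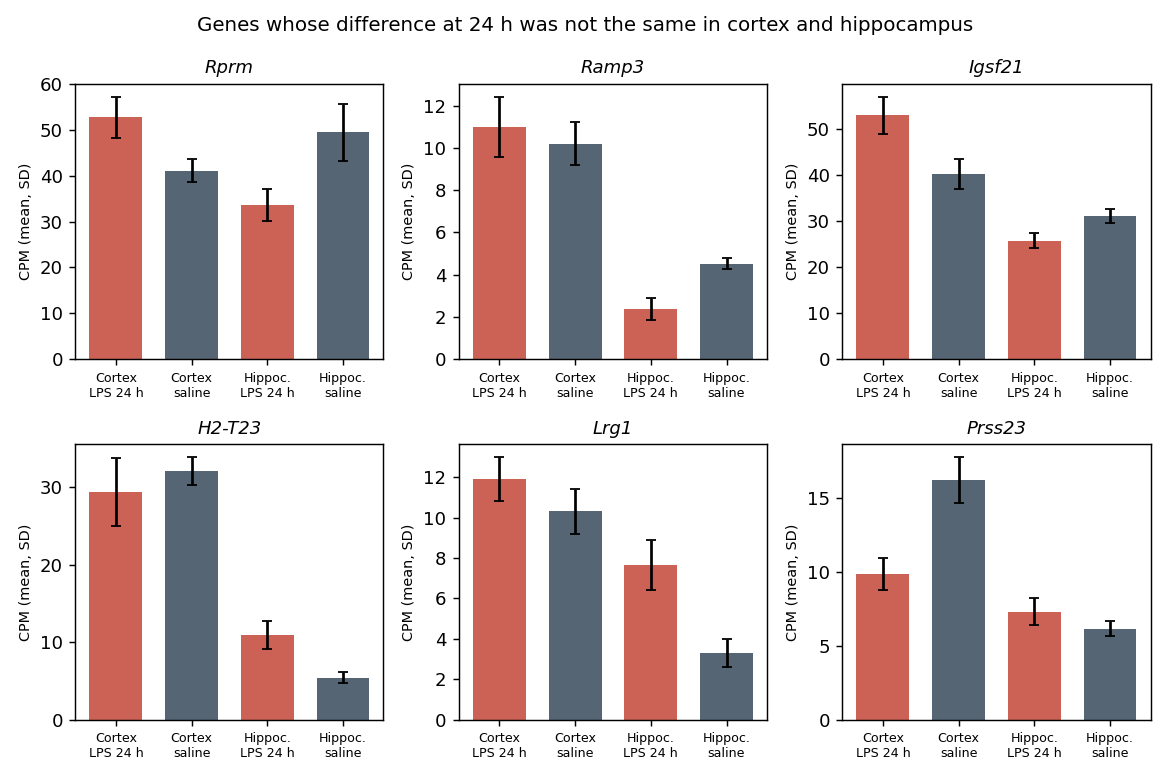
Mean CPM with SD for 6 genes whose log2 fold change at 24 h differed between tissues, in cortex (4 LPS 24 h, 3 saline mice) and hippocampus (4 and 3 mice). H2-T23 has a higher mean after LPS in hippocampus and not in cortex, the means of Lrg1 lie further apart in hippocampus than in cortex, and Rprm is higher after LPS in cortex and lower in hippocampus.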

How the data were processed

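Poly(A) RNA was sequenced from frontal cortex and hippocampus, and the authors deposited raw read counts per gene for 30 libraries, with no normalisation. The tools listed in the submitters' processing notes are STAR 2.6.0a, Trim Galore 0.4.1, DESeq2 and FastQC, with the build GRCm38 (mm10). Which program counted the reads, with what strand setting and annotation, is not given in the sources used here, so reads of overlapping or antisense genes may be shared. The table holds 48820 gene IDs, of which 48144 (98.6%) had a symbol in the reference tables.

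The members and gene lists (35 lists, 482 members, 455 tested) were chosen with earlier results of these data known. Counts of all 15 cortical libraries were fitted with edgeR 4.0.16 (R 4.3.3; TMM, filterByExpr with minimum counts 10 and 15, robust quasi-likelihood test), and all 30 for the comparison of tissues. Adjusted p-values are Benjamini-Hochberg values over all tested genes, and calls use 0.05. Alternatives were DESeq2 1.42.0, limma-voom (limma 3.58.1), other scalings, filters and sample sets, and leaving out each library. The fit was tested on simulated counts first. Total counts per library were 16826882 to 33034295 in the 7 libraries compared, and the common biological coefficient of variation was 0.103. Genes with few saline reads are given as pooled count ratios with exact 95% intervals, or as a bound from a floor of 3 counts, which cover counting error only.

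Genes named are the 12 largest called rises and 12 largest falls without overlap between groups and averaging 1 log2 CPM or more, up to 4 members of each list, the 6 largest differences each way of the other comparisons, and a few chosen by name. Scgb3a1, Igfbp7, Rtp1, Wipf3, Htra1 and further list members were named after their values were seen, and a few list members are not reported here. The labels give mice as separate animals. The saline and 24 h groups share no mice, so no block applied to them. Of 16 mice in all, 14 gave both tissues, which pairs libraries by mouse in the comparison of tissues. Over 13592 genes the correlation of a mouse's paired deviations had a median of 0.104 (-0.062 to 0.293).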

Additional observations from a re-analysis of the deposited data

Results flagged for a closer look

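Among 208 genes checked, 8 had 1 LPS 24 h cortical mouse set apart by a gap that was large relative to the range of the 4, which chance alone gives in about 1 in 20 groups. Such a gap can be small in level, as for Mertk, where the other mice were at 32.1 to 32.3 CPM. Prom1 was lowest in A276 at 6.41 CPM, Rprm in A276 at 46.7 CPM, Ifih1 in A276 at 6.68 CPM and Mertk in A275 at 30 CPM. Tbr1 was highest in A274 at 172 CPM, Sgk1 in A274 at 60.2 CPM, Gria1 in A276 at 316 CPM and Lum in A278 at 3.03 CPM.

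For 12 named genes the log2 fold change at 24 h differed between cortex and hippocampus in the interaction test of edgeR. Cortex minus hippocampus was 1.03 for Ramp3, 0.91 for Rprm, 0.66 for Igsf21, 0.59 for Tubb2b, 0.53 for Pfn1 and 0.52 for Dusp14. It was -1.13 for H2-T23, -1.0 for Lrg1, -0.96 for Prss23, -0.83 for Prr16, -0.70 for Fbxo32 and -0.68 for Rps6ka5. With mouse as a replicate block, whose saline side rests on A224 and A226, H2-T23 alone of these 12 stayed below an adjusted p of 0.05, at 0.00791. With mouse as a random effect in limma, which keeps every mouse, the 12 had adjusted p of 0.00425 to 0.0186.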

How the results depend on the processing

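Against saline, library totals alone gave 976 genes higher and 267 lower (a shift of the median gene of 0.07), limma-voom gave 1005 and 762, and a fit of both tissues gave 641 lower. Leaving out each library gave 427 to 554 higher and 237 to 394 lower. Against LPS 6 h, counts were 412 and 481 with both tissues in 1 fit, 244 and 118 with library totals, about 2.8e+02 and 302 with DESeq2, and 211 and 272 with limma-voom; leaving out each library gave 45 to 129 and 57 to 217. Against LPS 12 h every alternative gave 0. For the difference between tissues, DESeq2 called 33 and 28 and limma-voom 84 and 92, and leaving out each library gave 2 to 16 and 4 to 24. With the replicate block (mouse as a fixed effect) 1 and 2 genes were called, and with mouse as a random effect 16 and 19. The cause of these shifts was not tested. Of 208 named genes no called one changed direction (0), while 20 uncalled ones changed sign under at least 1 alternative, in 36 values. Leaving out each library gave log2 fold changes of -0.73 to 0.22 for Ppp1r1b, -0.93 to 0.81 for Gpr6 and -0.82 to 0.67 for Tac1 among striatal markers, and of -1.71 to 0.37 for Clic6, -1.95 to 0.27 for Kl, -2.13 to 0.74 for Aqp1 and -1.93 to 0.39 for Otx2 among choroid plexus markers, with the sign of these 7 turned without A224. It gave -0.30 to 0.02 for Hba-a1, -0.30 to 0.03 for Hba-a2 and -0.27 to 0.13 for Hbb-bt among haemoglobin genes, turned without A223. For other uncalled genes it gave -0.16 to 0.05 for Prox1, -0.11 to 0.54 for Nmb, -0.58 to 0.03 for Trh, -1.01 to 0.62 for Cd4, -0.15 to 0.01 for Nr1d1, -0.03 to 0.17 for Ache, -0.11 to 0.14 for Cldn5, -0.15 to 0.08 for Per1, -0.02 to 0.26 for Serpina3n and -0.11 to 0.02 for Slc17a7. Limma-voom gave 0.06 for Gpr6, 0.03 for Tac1, -0.13 for Nmb, -0.05 for Cldn5 and 0.03 for Per1, and library totals 0.01 for Prox1, 0.06 for Per1 and 0.03 for Slc17a7. Between 0 and 12 lost a call under the alternatives that kept every library, and between 9 and 31 when a library was left out. Depth limits genes with few reads in saline cortex, whose ratios have wide intervals.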
